A study of Mus musculus with 9 samples.

Results

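Skeletal muscle turns an electrical impulse into force by releasing calcium inside the fibre, and the genes of this machinery were examined in RNA from mouse tibia. The genes were 37 of 18272 in the expression table, chosen by name because they belong to excitation-contraction coupling, to calcium storage and transport in the sarcoplasmic reticulum, or to the electrical excitability of the fibre membrane. All 37 were found under their symbols and all 37 were among the 13960 genes with enough counts to be tested (10 or more counts in 3 or more of the 9 libraries).

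As background, an action potential spreads over the muscle membrane and into its tubular infoldings, where the dihydropyridine receptor, a voltage-gated calcium channel, acts as the voltage sensor. In skeletal muscle this sensor opens the ryanodine receptor of the sarcoplasmic reticulum by direct coupling, calcium leaves its store proteins and the filaments contract. Calcium pumps of the SERCA family then return the ion to the store. Fast and slow muscle fibres use different members of the same families: the pump *Atp2a1* and the store protein *Casq1* belong mainly to fast fibres, whereas *Atp2a2* and *Casq2* are known from slow fibres and heart.

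RNA-seq was performed on 1 tibia library from each of 3 NGT mice (normal glucose tolerance), 3 T1D mice (a type 1 diabetes model) and 3 Lira mice (the same model treated with liraglutide). All were female C57BL/6J mice bought at 10 to 11 weeks of age. T1D and Lira mice had received streptozotocin, which destroys the pancreatic beta cells, so that the diabetes was chemically induced, and NGT mice received its citrate vehicle. From 2 weeks later, T1D mice were given saline and Lira mice were given 0.6 mg/kg/day of liraglutide, a drug that activates the receptor of the gut hormone GLP-1, for 8 weeks in the study's methods. A further treatment of the NGT mice is not given in the sources used here. The label of Lira mouse 3 gives 9 weeks. The bones had been cleaned of muscle and connective tissue before RNA was extracted, so the muscle transcripts described here came from tibia samples labelled as bone.

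The RNA was nevertheless rich in muscle transcripts. The library totals ranged from 13086343 to 16528372 counts. A list of 23 skeletal muscle genes that held none of the 37 took between 12.9% of the counts (T1D mouse 1) and 23.6% (NGT mouse 3). The 3 genes of that list with the highest mean level per length were the actin gene *Acta1* (15065 to 25623 FPKM) and the fast troponin genes *Tnnt3* (11508 to 26105 FPKM) and *Tnnc2* (7139 to 13671 FPKM), where FPKM is fragments per kilobase scaled to the library total. Levels in CPM are counts scaled to the library total after edgeR's TMM factors, which ran from 0.883 in NGT mouse 3 to 1.25 in T1D mouse 1, so that CPM values are not shares of the library. Of 8 heart markers 6 were in the table, and the summed level of the 2 that passed the count filter ranged from 6.35 to 27.2 CPM. In any library *Myl7* had at most 1 count, *Nppa* at most 6, *Ryr2* at most 9 and *Tnni3* at most 26, whereas *Myh6* reached 133 and *Myl4* 436 counts. Other cell types varied as well. The summed level of 7 osteoblast genes ranged from 111 to 3705 CPM, of 7 erythroid genes from 390.0 to 29029.8 CPM and of 7 neutrophil genes from 3.87 to 4772 CPM. T1D mouse 1, the library with the least muscle RNA, also had the highest sum of 6 macrophage genes (767 CPM, against 27.4 to 113 CPM in the other 8 libraries). In such whole-tissue RNA, fewer muscle fibres in a sample and less RNA per fibre cannot be told apart.

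Stretches upstream of 4 of the genes are shown because these genes represent the levels described below: *Atp2a1*, *Casq1* and *Cacna1s* were steadier across libraries per muscle read than per read of the library, and *Casq2* was not. Each is the 250 bases before the annotated start in RefSeq (build GRCm38.p6), written 5′ to 3′ on the strand of the gene. Capitals mark an E-box with the letters CAGCTG, the kind of site bound by myogenic regulatory factors, in the first 3 and a match to the MEF2 consensus in *Casq2*. The stretches lie at chr7:126463074-126463323 on the minus strand (*Atp2a1*), chr1:172219896-172220145 on the minus strand (*Casq1*), chr1:136052561-136052810 on the plus strand (*Cacna1s*) and chr3:102086165-102086414 on the plus strand (*Casq2*).
Atp2a1: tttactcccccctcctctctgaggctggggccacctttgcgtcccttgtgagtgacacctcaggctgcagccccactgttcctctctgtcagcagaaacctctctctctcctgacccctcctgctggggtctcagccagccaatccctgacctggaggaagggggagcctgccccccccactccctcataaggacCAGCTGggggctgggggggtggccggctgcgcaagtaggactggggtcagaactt
Casq1: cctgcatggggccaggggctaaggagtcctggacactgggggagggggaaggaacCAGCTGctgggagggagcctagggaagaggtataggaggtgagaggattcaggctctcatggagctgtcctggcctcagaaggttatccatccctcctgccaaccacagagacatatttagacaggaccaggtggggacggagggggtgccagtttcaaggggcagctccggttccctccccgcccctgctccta
Cacna1s: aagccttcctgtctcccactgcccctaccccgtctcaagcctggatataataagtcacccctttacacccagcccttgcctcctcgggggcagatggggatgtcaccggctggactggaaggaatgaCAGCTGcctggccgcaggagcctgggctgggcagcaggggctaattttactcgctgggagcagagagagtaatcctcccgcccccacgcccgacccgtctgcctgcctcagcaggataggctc
Casq2: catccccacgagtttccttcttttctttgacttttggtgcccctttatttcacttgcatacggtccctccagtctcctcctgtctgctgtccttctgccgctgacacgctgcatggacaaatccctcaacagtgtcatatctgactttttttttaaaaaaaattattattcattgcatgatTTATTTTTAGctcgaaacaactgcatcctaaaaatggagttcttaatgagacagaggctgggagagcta
The capitals began 55, 195, 123 and 69 bases before the start, in this order of genes. Of the 37 genes, 24 had a promoter in the RefSeq table, with 28 promoters among them. CAGCTG, which reads the same on both strands, lay in 11 of the 28 promoters (39.3%) and in 13.0% of all 32851 promoters of this length. The MEF2 consensus, searched on both strands and unable to overlap CAGCTG, lay in 3 of the 28 (10.7%), those of *Casq2*, *Clcn1* and *Pvalb*, and in 2.92% of all. A match is a description of the letters and no evidence of binding. The other 13 genes were *Cacng1*, *Stac3*, *Ryr3*, *Camk2a*, *Jph1*, *Trdn*, *Asph*, *Jsrp1*, *Bin1*, *Srl*, *Atp2a2*, *Sln* and *Kcnj11*.

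On the deposited FPKM scale, which corrects for gene length and so allows levels of different genes to be compared, the calcium pump and the calcium buffer of fast fibres stood far above the rest. *Atp2a1*, which encodes SERCA1, had a mean of 9826 FPKM over the 9 libraries and ranked 5 among all genes of the table. *Pvalb*, the soluble calcium buffer parvalbumin, had 7710.1 FPKM and ranked 12, and *Casq1*, the main calcium-binding protein of the store, had 1254 FPKM and ranked 38. Next came the store and junction genes *Hrc* (348), *Trdn* (344), *Srl* (340.0), *Bin1* (299) and *Jsrp1* (257), the release channel *Ryr1* (254), the voltage sensor *Cacna1s* (228) and the slow-fibre pump *Atp2a2* (217). The release channel and its sensor were thus close in level, and both were far below the pump that clears the calcium they release. At the other end were *Pln*, the inhibitor phospholamban, with 1.53 FPKM, and *Ryr3*, a second ryanodine receptor, with 0.104 FPKM. The remaining 24 genes had means between 11.7 FPKM (*Dysf*) and 149 FPKM (*Cacng1*).

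**Figure D1:**
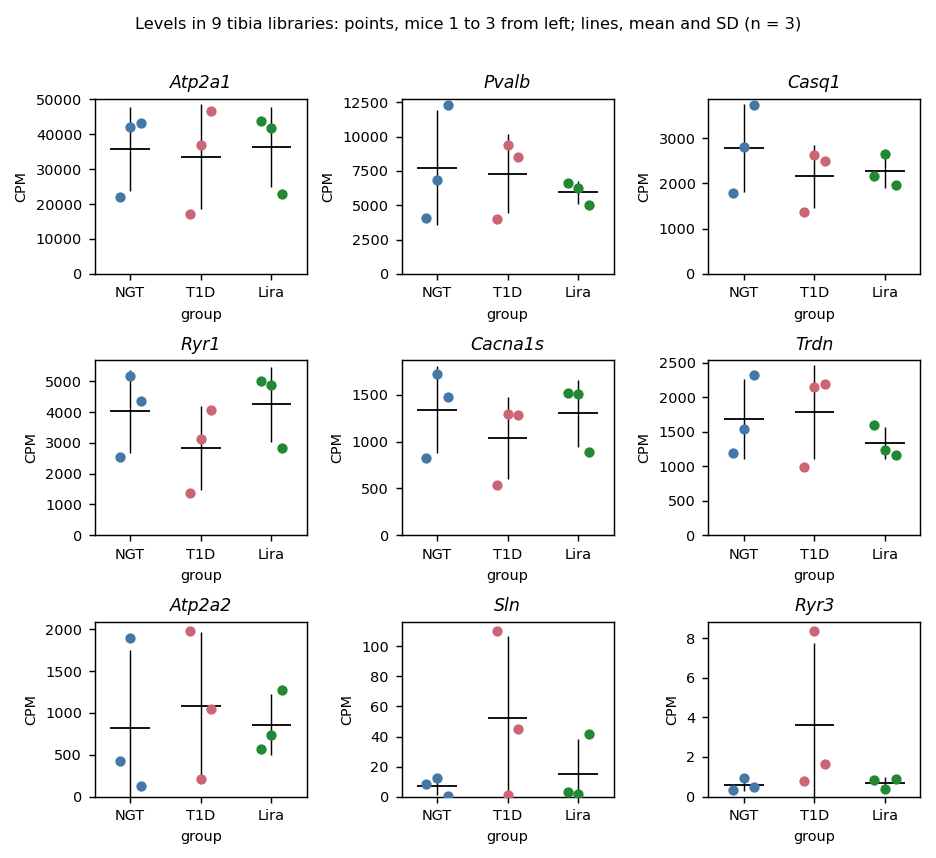
CPM of 9 of the genes in the 3 groups (panels with separate vertical axes from 0), with points for mice 1 to 3 from left, a horizontal line for the mean and a vertical line for the SD (n = 3), which ends at the axis where it would pass below 0. In *Atp2a1*, *Ryr1* and *Cacna1s* NGT mouse 1, T1D mouse 1 and Lira mouse 3 are the lowest of their groups, and in *Ryr3* T1D mouse 2 stands alone at 8.38 CPM.

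The study compared T1D with NGT mice to describe the diabetic bone, and Lira with T1D mice to describe the effect of treatment. None of the 37 genes passed the thresholds for a differentially expressed gene (DEG), an adjusted p under 0.05 and a fold change over 2, in edgeR's quasi-likelihood test of T1D against NGT, of Lira against T1D or of Lira against NGT. The background was 0% of 13960 genes called in each comparison. DESeq2 and limma also called 0 of the 37, although DESeq2 gave no adjusted p for 8 of the 37, *Ryr3* and *Sln* among them, in T1D against NGT. Of all 13960 genes limma called 0 in each comparison. DESeq2 called 1 of them in Lira against T1D and 0 in the other comparisons. The lowest adjusted p among the 37 was 0.977 for T1D against NGT, 0.978 for Lira against T1D and 0.999 for Lira against NGT. At an unadjusted p under 0.05, 1 gene was higher in T1D than in NGT mice (*Ryr3*), and 0 were lower, where 3.95% of all genes passed, 2.36% higher and 1.60% lower. The same gene was the only one of the 37 to be lower in Lira than in T1D mice at that level, and 0 were higher, against 3.33% of all genes, 1.78% lower and 1.55% higher. In Lira against NGT 0 of the 37 passed it, against 0.781% of all genes, 0.487% higher and 0.294% lower. These counts of 1, 1 and 0 of 37 were near or below the background. Groups whose CPM values did not overlap were seen for 0 of the 37 in T1D against NGT (3.52% of all genes higher and 5.08% lower), for 1 lower and 0 higher in Lira against T1D (3.40% lower and 3.74% higher) and for 0 in Lira against NGT (2.49% higher and 1.78% lower). On the scale per count of the muscle list, the groups of T1D against NGT did not overlap for 1 gene higher (*Ryr3*) and 1 lower (*Ryr1*), where 1.12% of all genes were higher and 0.509% lower. In Lira against T1D this held for 1 higher (*Ryr1*) and 2 lower (*Ryr3* and *Trdn*), against 0.630% and 1.26% of all genes. In Lira against NGT it held for 0 higher and 1 lower (*Cacng6*), against 0.516% and 0.731%. With counts divided by the library total alone, a scale added after the data were seen, the groups did not overlap for 1 gene higher (*Ryr3*) and 0 lower in T1D against NGT (2.56% and 4.84% of all genes), 0 higher and 1 lower (*Fkbp1a*) in Lira against T1D (2.42% and 3.42%) and 0 higher and 1 lower (*Cacng6*) in Lira against NGT (1.17% and 3.58%).

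The directions leaned differently from 1 comparison to the next. In T1D against NGT, 27 of the 37 fitted log2 fold changes were below 0 and 10 above, with a median of −0.12, against a median of 0.02 over all tested genes. In Lira against T1D, 17 were below 0 and 20 above, with a median of 0.03 against 0.04 over all genes. In Lira against NGT, 23 were below 0 and 14 above, with a median of −0.05 against 0.04. The first 2 comparisons share the T1D libraries, so an opposite lean in them is not independent. The split depended on the scaling. Counted per muscle read, with the summed count of the 23 muscle genes in place of the library size, the split of T1D against NGT was 12 below 0 and 25 above. That scaling also moved the median over all genes, to 0.28 in T1D against NGT and to −0.19 in Lira against T1D, under which the 37 genes had a median of 0.10 in the first comparison, below that of all genes, and of −0.12 in the second, above it. When T1D mouse 1 and Lira mouse 3 were both left out, the split of T1D against NGT was 19 below and 18 above.

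**Figure D2:**
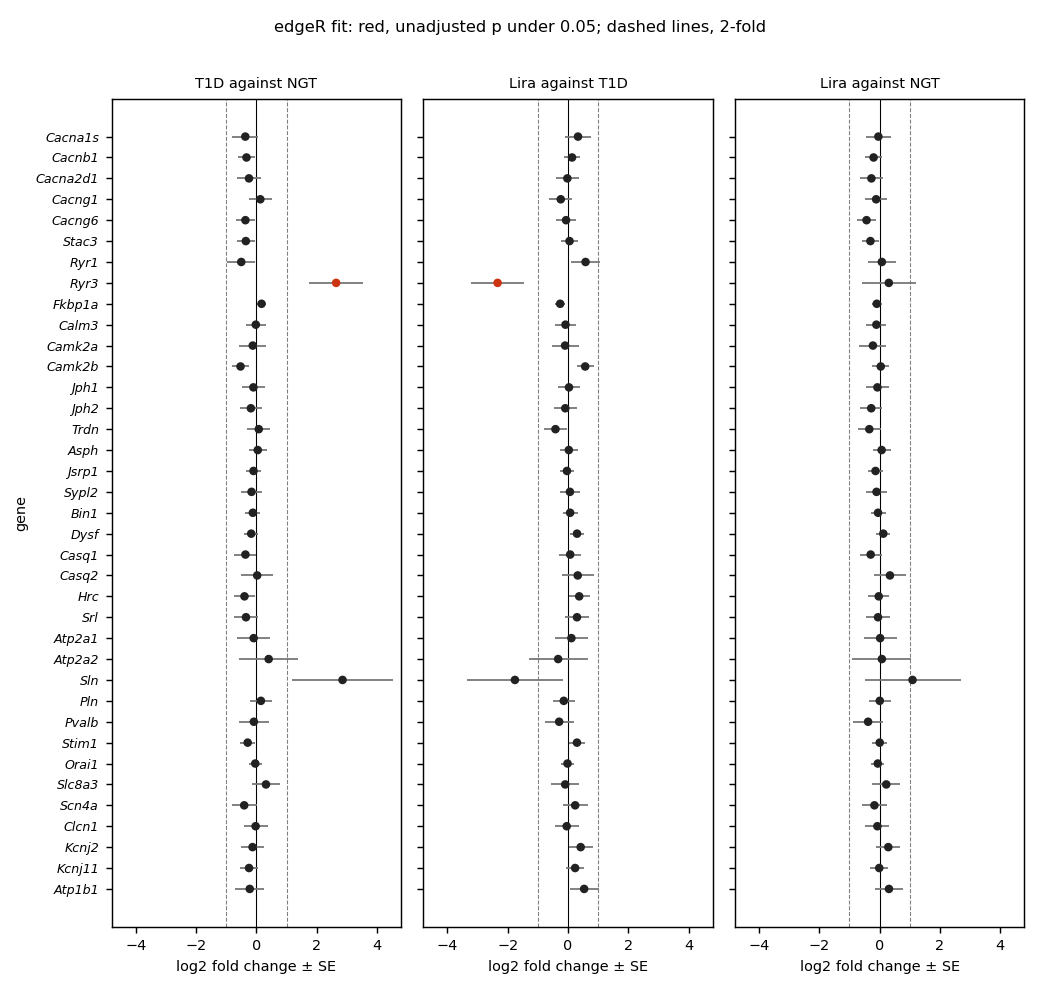
Fitted log2 fold change of each of the 37 genes with its standard error (horizontal line), in the 3 comparisons, from edgeR. Dashed lines mark 2-fold and red points an unadjusted p under 0.05. Points outside the dashed lines belong to *Ryr3* and *Sln*, which in T1D against NGT are at 2.64 and 2.85.

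The voltage sensor was represented by 6 genes, none of which passed the test in any comparison. *Cacna1s*, its pore-forming subunit, had 824, 1723 and 1474 CPM in NGT mice 1 to 3, 531, 1291 and 1285 CPM in T1D mice and 1515, 1507 and 887 CPM in Lira mice. The lowest values were those of T1D mouse 1 and NGT mouse 1, and all 3 groups overlapped. The log2 fold change was −0.37 ± 0.43 (SE) for T1D against NGT and 0.33 ± 0.43 for Lira against T1D (edgeR unadjusted p = 0.407 and 0.458). *Cacng1*, a gamma subunit of the same channel, had 109, 166 and 263 CPM in NGT mice 1 to 3, 116, 255 and 216 CPM in T1D mice and 203, 154 and 139 CPM in Lira mice. Here too the group ranges overlapped, and the 95% interval of the T1D difference ran from −0.73 to 0.98 on the log2 scale. Over the 9 libraries the beta subunit *Cacnb1* ranged from 109.5 to 217 CPM, the alpha-2/delta subunit *Cacna2d1* from 267 to 787, the gamma subunit *Cacng6* from 85.1 to 223 and *Stac3*, an adaptor that the sensor needs for coupling, from 96 to 214. Of the 6 genes, 5 had a fitted value below 0 in T1D against NGT, 3 in Lira against T1D and 6 in Lira against NGT, while per muscle count 5, 5 and 4 did. The lower end of each of these last 4 ranges was in T1D mouse 1.

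Of the 6 genes of the release channel and its regulators, *Ryr1*, the skeletal ryanodine receptor, was the most abundant. It had 2547, 5181 and 4369.7 CPM in NGT mice 1 to 3, 1354, 3117 and 4054 CPM in T1D mice and 5018, 4893 and 2835 CPM in Lira mice. The T1D mean of 2842 ± 1371 CPM (SD, n = 3) was the lowest of the 3 groups, against 4033 ± 1349 in NGT and 4249 ± 1226 in Lira mice, and the groups overlapped. The log2 fold changes were −0.50 ± 0.47 and 0.58 ± 0.47 for T1D against NGT and Lira against T1D (unadjusted p = 0.311 and 0.249 by edgeR). Per 1000 counts of the muscle list the NGT libraries held 18.6, 21.8 and 16.4 *Ryr1* counts, the T1D libraries 13.1, 15.3 and 16 and the Lira libraries 22, 20.7 and 19.8. On this scale all 3 T1D values lay below all NGT and Lira values. With that scaling in the edgeR fit the difference of Lira against T1D was 0.49 (unadjusted p = 0.0243, adjusted p = 0.9999, edgeR) and that of T1D against NGT −0.35 (unadjusted p = 0.0895).

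*Ryr3*, a second ryanodine receptor with low expression in adult limb muscle, had 5, 12 and 6 counts in NGT mice 1 to 3, 14, 128 and 25 in T1D mice and 12, 5 and 15 in Lira mice. T1D mouse 2 stood alone at the top, and the counts of T1D mouse 1 were within the range of the Lira libraries. The log2 fold change was 2.64 ± 0.90 for T1D against NGT (unadjusted p = 0.0178, adjusted p = 0.977, edgeR) and −2.33 ± 0.88 for Lira against T1D (unadjusted p = 0.0279, adjusted p = 0.978). Without T1D mouse 2 these values were 1.07 and −0.77 (unadjusted p = 0.144 and 0.275), so that the difference was largely that of 1 library. The other 8 libraries had 5 to 25 counts, not far above the 3 counts that a count of 0 allows.

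*Calm3*, 1 of the calmodulin genes, had 196, 290.2 and 417 CPM in NGT mice 1 to 3, 182, 322 and 386 CPM in T1D mice and 270.2, 310.2 and 258 CPM in Lira mice, with group means within 279.6 to 301 CPM. *Camk2a*, a subunit of the calcium/calmodulin-dependent kinase II, had 293, 541 and 657 CPM in NGT mice 1 to 3, 195, 596 and 577 CPM in T1D mice and 418, 511 and 350.3 CPM in Lira mice. Its groups overlapped, with the lowest value in T1D mouse 1. *Camk2b*, the beta subunit of that kinase, had 141, 219.7 and 189.6 CPM in NGT mice 1 to 3, 101, 171 and 108 CPM in T1D mice and 190.4, 234 and 140.1 CPM in Lira mice. T1D values were low in mice 1 and 3, and T1D mouse 2 lay among the NGT values. Its fold change on the log2 scale was −0.53 ± 0.28 for T1D against NGT and 0.57 ± 0.28 for Lira against T1D (edgeR unadjusted p = 0.0969 and 0.0782). After *Ryr3* these were the lowest unadjusted p-values among the 37 in either comparison. Per muscle read both differences were smaller, at −0.24 and 0.32. *Fkbp1a*, which encodes the ryanodine receptor stabilizer FKBP12 and is singled out after its values were seen, was the only 1 of the 37 whose groups did not overlap in CPM in a comparison. It had 117, 137 and 148 CPM in NGT mice 1 to 3, 169, 143 and 139 CPM in T1D mice and 128, 138 and 111 CPM in Lira mice. All 3 Lira values lay below all 3 T1D values, as they did for 3.40% of all tested genes, and the log2 fold change was −0.26 ± 0.16 (unadjusted p = 0.147, edgeR). *Fkbp1a* is expressed in many cell types, and reads of *Fkbp1a* and *Calm3* can be divided with similar genes in the estimated counts.

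The heat map shows how alike most of the genes were from library to library.

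**Figure D3:**
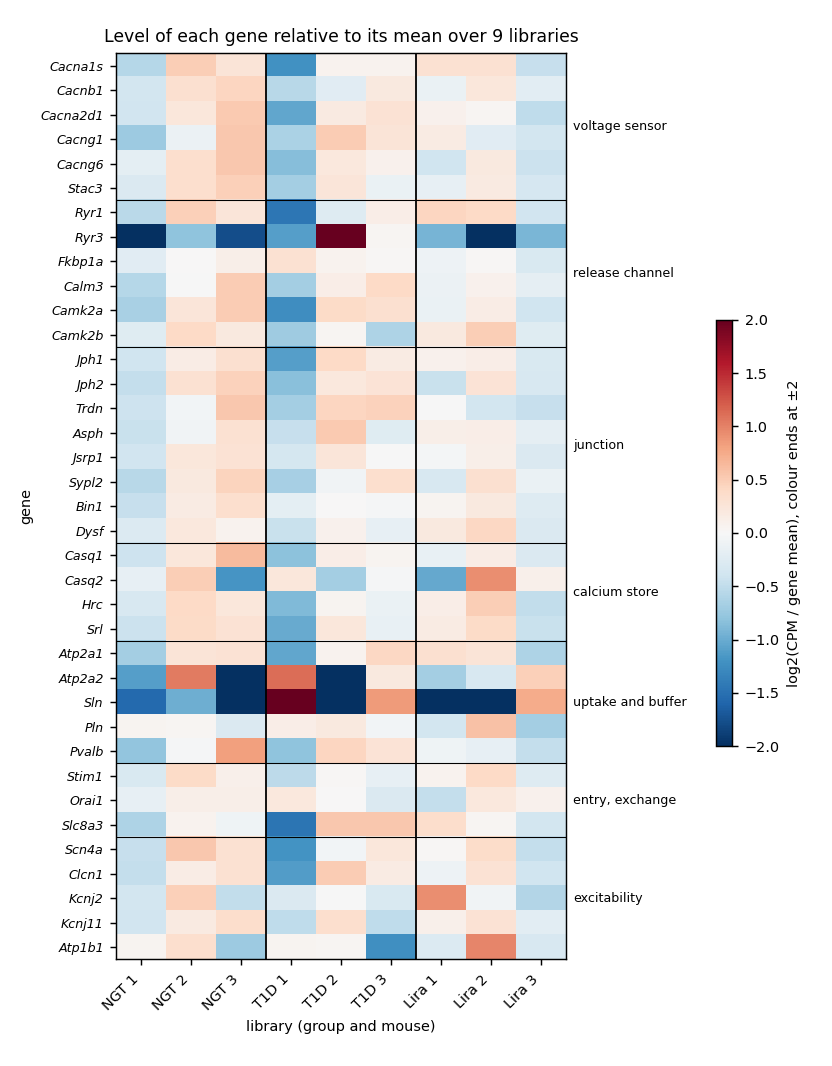
log2 ratio of CPM to the mean of each gene over the 9 libraries, with genes in rows by role and libraries in columns by group. T1D mouse 1 is low for most rows, as are NGT mouse 1 and Lira mouse 3 to a lesser degree, while *Atp2a2*, *Sln* and *Casq2* follow another order.

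The 8 genes of the junction between the tubular membrane and the store also overlapped between groups in CPM. *Trdn* encodes triadin, which anchors the store protein calsequestrin at the release channel, and it had 1195, 1544 and 2323 CPM in NGT mice 1 to 3, 994, 2149 and 2192 CPM in T1D mice and 1593, 1236 and 1168 CPM in Lira mice. The Lira mean of 1332 ± 229 CPM was the lowest, with a log2 fold change of −0.42 ± 0.38 against T1D (unadjusted p = 0.299, edgeR). *Bin1*, which shapes the tubular membrane, had 442, 685 and 771 CPM in NGT mice 1 to 3, 532, 614 and 600.2 CPM in T1D mice and 630.4, 696 and 506 CPM in Lira mice. Its values were more even than those of most other genes. The junctophilins *Jph1* and *Jph2*, which hold the membranes together, ranged from 196 to 558 and from 332 to 810.2 CPM. Junctin and its relatives from *Asph* ranged from 201 to 399 CPM, *Jsrp1* from 223 to 353, the triad protein gene *Sypl2* (mitsugumin-29) from 288 to 621 and the membrane repair gene *Dysf* from 52.8 to 96.3. In T1D against NGT 6 of the 8 had a fitted value below 0, between −0.19 and 0.08 for the 8, but per muscle count all 8 were above 0, so the direction turned with the scaling.

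In the calcium store, *Casq1* had 1795, 2807 and 3733 CPM in NGT mice 1 to 3, 1356, 2621 and 2489 CPM in T1D mice and 2158, 2661 and 1972 CPM in Lira mice. NGT mouse 3 was the highest library and T1D mouse 1 the lowest. Its log2 fold change was −0.37 ± 0.37 for T1D against NGT and 0.07 ± 0.36 for Lira against T1D. *Hrc*, a histidine-rich calcium-binding protein of the same store, had 699.8, 1139 and 1016 CPM in NGT mice 1 to 3, 471, 899 and 796 CPM in T1D mice and 957, 1223 and 620.4 CPM in Lira mice. The 2 genes and the store glycoprotein gene *Srl* (sarcalumenin, 720.5 to 1887 CPM) were each lowest in T1D mouse 1. All 4 store genes, *Casq2* included, had fitted values above 0 in Lira against T1D (2 of the 4 per muscle count), between 0.07 and 0.37, the largest of them with an unadjusted p of 0.316 by edgeR.

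*Atp2a1* alone took 52% to 62.3% of the counts of the 37 genes in each library. It had 22038, 42106 and 43179.9 CPM in NGT mice 1 to 3, 17161, 36816 and 46646 CPM in T1D mice and 43803, 41919 and 23008 CPM in Lira mice. The values of NGT mouse 1, T1D mouse 1 and Lira mouse 3, 1 in each group, were lower than those of the other 6 libraries, and the groups overlapped. The log2 fold change was −0.09 ± 0.55 for T1D against NGT, with a 95% interval of −1.34 to 1.15, and 0.11 ± 0.55 for Lira against T1D, with an interval of −1.13 to 1.36. A change of either sign and more than 2-fold was therefore within the error of these comparisons. *Pvalb* had 4044, 6864 and 12314 CPM in NGT mice 1 to 3, 4001, 9379.7 and 8487 CPM in T1D mice and 6589, 6232 and 5009.9 CPM in Lira mice. NGT mouse 3 was the highest, and the 3 groups overlapped.

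Relative to the muscle list, *Atp2a1* was the steadiest of the 37. Per 1000 muscle counts it had 161, 177 and 162 counts in NGT, 166, 181 and 185 in T1D and 192, 178 and 161 in Lira mice. Its coefficient of variation over the 9 libraries was 32% in CPM, 21.8% with counts divided by the library total alone and 6.7% per muscle count. On the same 3 scales *Cacna2d1* varied by 29.4%, 20% and 8.6%, *Cacna1s* by 32.1%, 22.5% and 11.7% and *Scn4a* by 32.4%, 22.7% and 11.9%. The comparison over all 37 depended on the scale. In all, 26 of the 37 varied less per muscle count than in CPM, but 20 varied less than by library total, with 17 varying more. The median coefficient of variation was 29.2% in CPM, 20.9% by library total and 20.2% per muscle count. The 37 genes together had 289 to 324 counts per 1000 muscle counts, while they took 4.11% to 6.95% of all counts. On the log2 scale the summed level per muscle count differed by 0.079 between T1D and NGT (pooled SD 0.054) and by −0.049 between Lira and T1D (pooled SD 0.047), values that were not tested.

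The other 11 genes varied more per muscle count than in CPM, and also more than by library total. The differences were widest in *Atp2a2*, *Sln*, *Fkbp1a* and *Orai1*. *Fkbp1a* varied by 12.6%, 20.8% and 46.2% in CPM, by library total and per muscle count, and its counts per library total were highest in T1D mouse 1. For *Orai1* the values were 15.6%, 22.8% and 45.5%, for *Pln* 25.3%, 27.6% and 44.3% and for *Bin1* 16.9%, 8.47% and 24.9%. *Asph*, *Jsrp1* and *Dysf* had nearly the same spread in CPM as per muscle count, but by library total *Jsrp1* varied by 9.65% and *Dysf* by 11.7%, against 21% and 20.7% per muscle count. *Atp2a2*, *Sln*, *Casq2* and *Atp1b1* varied widely on all 3 scales.

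**Figure D4:**
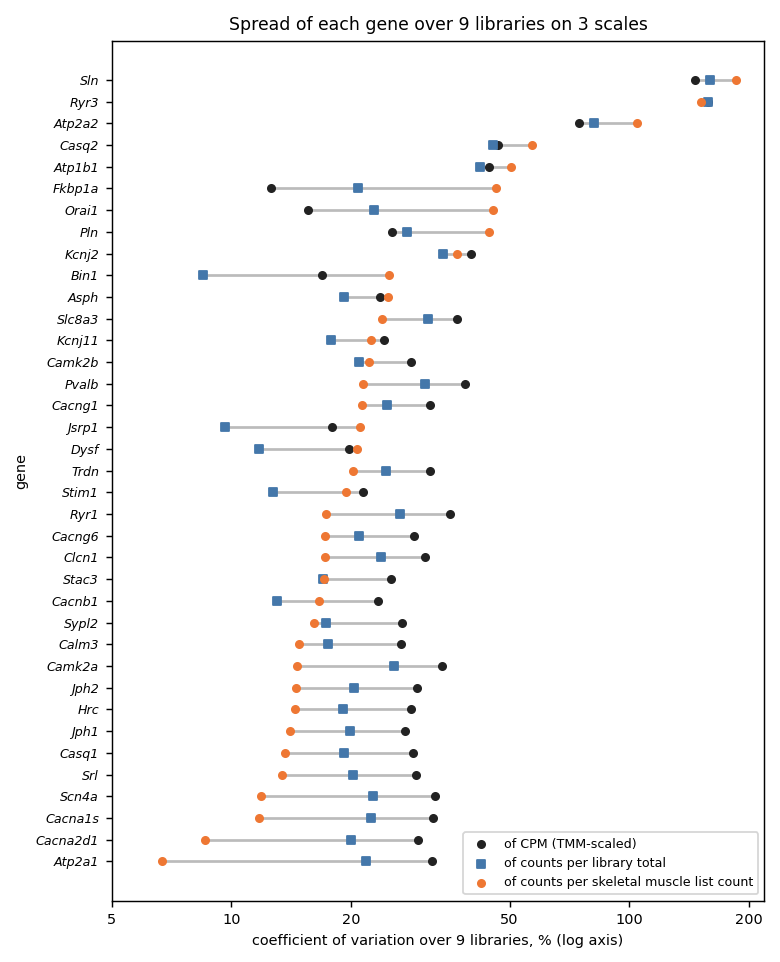
Coefficient of variation over the 9 libraries in percent (horizontal, log axis) for each of the 37 genes, in CPM (black), with counts divided by the library total (blue squares) and per count of the skeletal muscle list (orange). The orange point lies to the left of the black one in 26 genes and to the left of the blue one in 20, and the lowest value is that of *Atp2a1* per muscle count, 6.7%.

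The genes of slow fibres and their regulators had another order of libraries. *Atp2a2*, which encodes the slow and cardiac pump SERCA2, had 427, 1891 and 131 CPM in NGT mice 1 to 3, 1986, 206 and 1049 CPM in T1D mice and 573, 734 and 1274 CPM in Lira mice. Its level spanned 15.1-fold, with high and low libraries in both the NGT and T1D groups. *Sln*, sarcolipin, a small inhibitor of these pumps, had 8.5, 12.7 and 0.475 CPM in NGT mice 1 to 3, 111, 1.24 and 45 CPM in T1D mice and 2.85, 1.56 and 41.6 CPM in Lira mice. Its 3 highest values were in T1D mice 1 and 3 and Lira mouse 3, and it had 6 counts in NGT mouse 3. The log2 fold change of *Sln* was 2.85 ± 1.67 for T1D against NGT (unadjusted p = 0.123, adjusted p = 0.977, edgeR), the largest value among the 37, with a 95% interval of −0.95 to 6.65. For Lira against T1D it was −1.76 ± 1.59 (unadjusted p = 0.299, edgeR), and without Lira mouse 3 it was −4.56 (unadjusted p = 0.0369). Without T1D mouse 1 the values were 1.67 for T1D against NGT (unadjusted p = 0.366, edgeR) and −0.58 for Lira against T1D (unadjusted p = 0.746). *Casq2*, the calsequestrin of slow fibres and heart, had 89.6, 139.8 and 44.3 CPM in NGT mice 1 to 3, 117, 62.6 and 98.2 CPM in T1D mice and 49.1, 191 and 107 CPM in Lira mice. Lira mouse 2 was the highest and NGT mouse 3 the lowest library. *Pln* had 3.81, 3.79 and 3.01 CPM in NGT mice 1 to 3, 4.02, 4.19 and 3.53 CPM in T1D mice and 2.85, 5.53 and 2.3 CPM in Lira mice, which was low in all libraries.

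In CPM the 9 libraries stood in the same order for *Atp2a2* as for the sum of 9 slow muscle genes, among them the slow myosin *Myh7*, that held none of the 37. This sum ran from 610.4 CPM in NGT mouse 3 to 9728 CPM in T1D mouse 1. Over the 9 libraries the log2 levels correlated at Pearson's r = 0.997 (exact permutation p = 2.76e-06, the smallest that the permutations can give, and 1.1e-05 adjusted over 4 genes) and Spearman's rho = 1 (exact p = 5.51e-06, adjusted 2.2e-05). By library total alone r was 0.997 and rho 0.983. Without the 2 libraries farthest from the median of the slow list, NGT mouse 3 and T1D mouse 2, r was 0.990 (exact p = 0.000595). *Sln* correlated at r = 0.849 (exact p = 0.00433, adjusted 0.00866) and rho = 0.867 (exact p = 0.00451), but without those 2 libraries r was 0.679 (exact p = 0.102). For *Casq2* r was 0.736 (exact p = 0.0248, adjusted 0.033) and rho 0.767 (exact p = 0.0214), and without the 2 libraries r was 0.460 (exact p = 0.311). Leaving out these 2 libraries also narrowed the range, and the relations of *Sln* and *Casq2* did not pass the test without them. *Pln* showed no such relation (r = 0.0314, exact p = 0.937, and rho = −0.0167, exact p = 0.982). The points share their libraries, so the depth and composition of each library enter both axes, and the groups were pooled, since 3 libraries a group are too few for a value of their own.

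**Figure D5:**
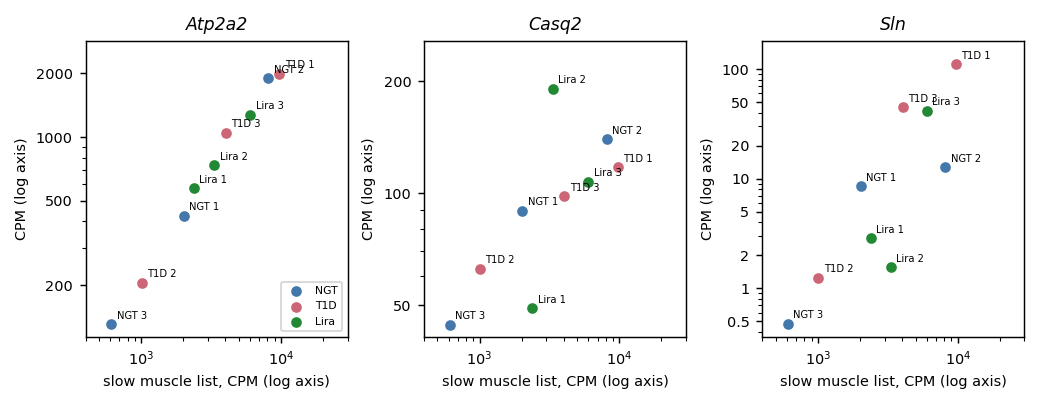
CPM of *Atp2a2*, *Casq2* and *Sln* (vertical, log axis) against the summed CPM of the slow muscle list (horizontal, log axis), with a labelled point for each library, coloured by group. *Atp2a2* rises with the list in all 9 libraries, from NGT mouse 3 to T1D mouse 1, and the groups are mixed along the line.

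With the slow muscle sum as a covariate in the edgeR fit, an alternative added after the data were seen, 0 of the 37 passed the DEG thresholds in the 3 comparisons. That fit called 0 of all 13960 genes in each comparison. The unadjusted p of *Ryr3* was then 0.0384 for T1D against NGT and 0.0671 for Lira against T1D.

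Genes of calcium entry and exchange were of moderate level. *Stim1*, the calcium sensor of the store that opens entry channels, had 206, 333 and 272 CPM in NGT mice 1 to 3, 177, 259 and 227 CPM in T1D mice and 266, 335 and 213 CPM in Lira mice. *Orai1*, the entry channel it opens, had 34.3, 41.7 and 41.8 CPM in NGT mice 1 to 3, 44.4, 38.7 and 31.3 CPM in T1D mice and 27.6, 44.5 and 40.9 CPM in Lira mice. Both overlapped between groups, with log2 fold changes for T1D against NGT of −0.29 ± 0.25 and −0.04 ± 0.21 (edgeR unadjusted p = 0.281 and 0.852). The sodium-calcium exchanger *Slc8a3* ranged from 32.6 to 131 CPM, with its lowest value in T1D mouse 1 and its highest in the other 2 T1D libraries, for which it is described although it fell outside the naming rule. Without T1D mouse 1 its log2 difference of T1D from NGT was 0.73 (unadjusted p = 0.0245, edgeR), and with all libraries it was 0.31 ± 0.47 (unadjusted p = 0.522).

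Among the 5 genes of membrane excitability, *Scn4a*, the sodium channel of the muscle action potential, had 428, 851 and 723 CPM in NGT mice 1 to 3, 257, 567 and 685 CPM in T1D mice and 595, 762 and 421 CPM in Lira mice. T1D mouse 1 was the lowest library. It had a log2 fold change of −0.41 ± 0.41 for T1D against NGT (unadjusted p = 0.351, edgeR). *Atp1b1*, a subunit of the sodium-potassium pump, had 242, 293 and 141 CPM in NGT mice 1 to 3, 240.3, 239.5 and 99.2 CPM in T1D mice and 193, 459 and 186 CPM in Lira mice. Lira mouse 2 and T1D mouse 3 were the extremes, and the log2 fold change of Lira against T1D was 0.53 ± 0.48 (unadjusted p = 0.292, edgeR). The chloride channel *Clcn1*, which stabilizes the resting fibre and is mutated in congenital myotonia, ranged from 81.4 to 251 CPM, the inward rectifier potassium channel *Kcnj2* from 54.6 to 156 and the ATP-sensitive potassium channel *Kcnj11* from 134 to 245. All 5 had a fitted value below 0 in T1D against NGT, none with an unadjusted p under 0.05, but 4 of the 5 were above 0 per muscle count and 1 by library size. In Lira against T1D 4 had a fitted value above 0, also per muscle count and by library size.

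Ratios of 2 of the genes in the same library do not depend on library size. Of 8 ratios in 3 comparisons, 0 of 24 reached an adjusted p under 0.05 in a two-sided exact permutation test, in which 3 against 3 mice cannot give a p below 0.1. The groups did not overlap in 4 of the 24, all of them ratios to *Ryr1* in comparisons that share libraries. Each such separation gives the p of 0.1. The ratio of *Cacna1s* to *Ryr1*, in percent of FPKM, was 89.6, 88 and 91.2 in NGT, 124, 111 and 84.9 in T1D and 78.7, 80.2 and 83.9 in Lira mice. All Lira values lay below all values of the other groups, with log2 differences in counts of −0.27 from T1D and −0.11 from NGT (exact permutation p = 0.1 each, adjusted p = 0.6). The ratio of *Ryr3* to *Ryr1* was higher in every T1D mouse than in every NGT or Lira mouse (log2 differences of 2.67 for T1D against NGT and −2.41 for Lira against T1D, exact permutation p = 0.1 each, adjusted p = 0.6). It rests on low counts of *Ryr3*, from 5 to 128 with a median of 12.

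The remaining ratios overlapped between groups in every comparison. *Atp2a2* was 1.53, 3.56 and 0.239% of *Atp2a1* in FPKM in NGT, 9.16, 0.44 and 1.78% in T1D and 1.03, 1.39 and 4.38% in Lira mice. *Casq2* was 3.7, 3.69 and 0.878% of *Casq1* in NGT, 6.4, 1.77 and 2.92% in T1D and 1.69, 5.31 and 4.03% in Lira mice. The fast forms were thus in excess in each of the 9 libraries, and in both pairs T1D mouse 1 had the largest share of the slow form. *Pvalb* was 72.3, 64.1 and 112% of *Atp2a1* in NGT, 92.4, 100 and 71.4% in T1D and 59, 58.6 and 85.4% in Lira mice. *Camk2b* was 47.1, 39.9 and 28.3% of *Camk2a* in NGT, 52, 28.4 and 18.6% in T1D and 44.9, 45.1 and 39.3% in Lira mice. The Lira libraries were the most alike in this last ratio, and the T1D libraries the least. The other 2 ratios were *Sln* to *Atp2a1* and *Pln* to *Atp2a2*, whose lowest exact permutation p-values over the 3 comparisons were both 0.4.

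Same-numbered NGT and T1D mice deviated together from their group means across genes, so the fit with the replicate number as a block is given beside the result. Some mice of different numbers did so too, such as Lira mouse 3 with NGT mouse 1 (r = 0.780), so a shared number need not mark a pair. With the block in the fit of all 9 libraries, 0 of the 37 and 0 of all 13960 genes passed the DEG thresholds for T1D against NGT. Of the 37, 2 had an unadjusted p under 0.05, *Ryr3* higher and *Camk2b* lower, where 5.39% of all genes passed. With the block and only the NGT and T1D libraries, an alternative added after the data were seen, 7 of the 37 did, against 14.2% of all genes. *Ryr3* was higher and *Camk2b*, *Hrc*, *Ryr1*, *Cacng6*, *Cacna1s* and *Scn4a* were lower in T1D mice, and the lowest adjusted p among them was 0.236.

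Beyond the 37, a list of 73 other genes of calcium handling and excitability was read from the same fits, of which 64 were tested. None of them was a DEG in the 3 comparisons by edgeR, DESeq2 or limma. Of all 13960 genes edgeR and limma called 0 in each comparison, and DESeq2 called 1, in Lira against T1D. The median log2 fold change of the 64 was −0.07 in T1D against NGT, 0.04 in Lira against T1D and −0.04 in Lira against NGT, against 0.02, 0.04 and 0.04 over all genes. At an unadjusted p under 0.05, 2 were higher and 2 lower in T1D than in NGT mice (2.36% and 1.60% of all genes), 0 passed in Lira against T1D (3.33% of all genes), and 1 was lower and 0 higher in Lira than in NGT mice (0.294% and 0.487% of all genes). Per muscle count 0 of the 64 passed in each comparison, against 1.16%, 0.938% and 0.186% of all genes in the same order. The potassium channel *Kcna7* had 159, 220.0 and 201 CPM in NGT mice 1 to 3, 79.6, 129 and 105 CPM in T1D mice and 146, 202 and 103 CPM in Lira mice. All T1D values lay below all NGT values, as for 5.08% of all genes, with a log2 fold change of −0.88 ± 0.28 (unadjusted p = 0.0128, adjusted p = 0.977, edgeR). *Cacng7*, a calcium channel gamma subunit gene, had 21.9, 33.8 and 39.2 CPM in NGT mice 1 to 3, 17.3, 21.2 and 21.9 CPM in T1D mice and 15.9, 21.5 and 16 CPM in Lira mice. It was lower in Lira than in NGT mice by a log2 fold change of −0.83 ± 0.24 (unadjusted p = 0.00798, edgeR) and in T1D than in NGT mice by −0.65 ± 0.24 (unadjusted p = 0.0256), and these comparisons share the NGT libraries. *Cacnb3* and *Atp1b3* were the 2 that were higher in T1D mice, with log2 fold changes of 1.20 ± 0.50 and 0.41 ± 0.17, and both had their highest value in T1D mouse 1, 11 and 76.4 CPM. That library also had the least muscle and the most macrophage RNA, whose part in these values was not tested. In Lira against T1D the lowest edgeR p of the list was that of *Scn2b*, with a log2 fold change of 0.94 ± 0.44 (unadjusted p = 0.0609). In Lira against NGT *Rcan1* had a log2 fold change of 0.54 ± 0.36 (edgeR unadjusted p = 0.163).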

How the data were processed

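RNA was taken from 1 tibia each of 3 NGT, 3 T1D and 3 Lira mice and sequenced as 1 library per mouse. The authors aligned clean reads to the mouse genome (mm9 per the labels) and deposited expected counts, estimated per gene and not normalized, of which 30.2% were not whole, beside FPKM values, a unit corrected by the authors for gene length and sequencing depth. The aligner, counting tool and strand setting are not given in the sources used here. The authors' group means were not used. The 37 genes and all lists were chosen with earlier results of these data known.

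Counts were rounded and tested in edgeR 4.0.16 (R 4.3.3; TMM, glmQLFit and glmQLFTest, 3 group means over 9 libraries, all 13960 genes with 10 or more counts in 3 or more libraries), with Benjamini-Hochberg adjustment over all of them. The standard error of a log2 fold change was derived from the F statistic, and 95% intervals from the t distribution with edgeR's degrees of freedom. Ratios and correlations were tested by exact permutation over libraries. CPM values are counts per library total of the tested genes times its TMM factor. For the spread of the members they were also divided by the library total alone, chosen after the data had been seen. The procedure was tested on simulated data with a smaller spread between libraries than in these data. Here edgeR's common biological coefficient of variation was 0.433. That test therefore does not show how many changes would be found here. With 13086343 to 16528372 counts per library, 3 counts correspond to 0.163 to 0.237 CPM, counting error only.

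The alternatives were DESeq2 1.42.0, library size, muscle counts as library size, no low-count filter, limma 3.58.1 on log2(FPKM + 1), a replicate block, fits restricted to 2 groups, dropping the fold threshold, and each mouse left out in turn. Chosen after the data had been seen were leaving out T1D mouse 1 and Lira mouse 3 together, the slow muscle sum as a covariate and the block with only 2 groups. Deviations from the group means (log2 CPM, prior count 2) of same-numbered NGT and T1D mice correlated at 0.583, 0.647 and 0.283, all above 0.1. The block that pairs them is therefore given beside the main fit, which had no pairs. This pairing comes from the data, not from the labels, and the block was tested on the same data. For T1D with Lira mice the values were −0.244, 0.615 and 0.271, and for NGT with Lira mice −0.173, 0.727 and 0.0125. No pairing was taken from these, although the block fit of all 9 libraries used the numbers of the Lira mice too. Between mice of different numbers the values ran from −0.697 to 0.0668 for NGT with T1D mice. They ran from −0.698 to 0.412 for T1D with Lira mice and from −0.777 to 0.780 for NGT with Lira mice.

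Values are given for the 2 genes of each role with the highest mean FPKM, those with an unadjusted p under 0.05, the genes of the ratios, the 3 genes of the other calcium list with the lowest p in each comparison and the 3 most abundant muscle genes. *Fkbp1a* and the other genes given by range, *Slc8a3* among them, fall outside this rule and were picked out after their values were seen. A result that this rule names is not reported here.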

Additional observations from a re-analysis of the deposited data

How the results depend on the processing

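No alternative called any of the 37 genes in any comparison, while the sign of the fitted value changed in 0 to 15 of the 37 genes, depending on the alternative. Of all tested genes the alternatives called 0, apart from 1 by DESeq2 in Lira against T1D. The count of genes with an unadjusted p under 0.05, which was 1 for T1D against NGT, 1 for Lira against T1D and 0 for Lira against NGT, moved with several choices. With limma on log2(FPKM + 1) it was 0, 0 and 1 (*Cacng6*), against 3.12%, 2.14% and 0.809% of all genes. Without T1D mouse 1 and Lira mouse 3 it was 2 for T1D against NGT (*Ryr3* and *Slc8a3*), against 3.84% of all genes. Per muscle count it was 2 for Lira against T1D (*Ryr3* and *Ryr1*), against 0.938% of all genes. With the slow muscle covariate it was 0 there, against 2.39%. Leaving out each mouse in turn gave 0 to 2 for T1D against NGT and 0 to 2 for Lira against T1D. Of all genes, 1.61% to 7.32% passed in the first comparison and 1.83% to 5.35% in the second. The count for T1D against NGT was 0 without NGT mouse 1 or 3 and 2 without T1D mouse 1, and for Lira against T1D it was 0 without Lira mouse 1 or 2 and 2 without Lira mouse 3 (*Camk2b* and *Sln*). Without T1D mouse 2 *Camk2b* took the place of *Ryr3* in both comparisons. With the slow muscle list in place of the skeletal muscle list, the log2 difference of the summed level was −0.82 for T1D against NGT, 0.039 for Lira against T1D and −0.78 for Lira against NGT. The cause of these moves was not tested.

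With the replicate block, the count was 2 for T1D against NGT (5.39% of all genes). With the block and only the 2 groups compared it was 7 there (14.2%) and 0 for Lira against T1D (1.89%). In the block fit of all 9 libraries the count for Lira against T1D was again 1, but *Camk2b*, higher, took the place of *Ryr3*, lower (3.63% of all genes). For Lira against NGT it stayed 0. Counts were low for *Ryr3*, with 5 to 25 counts in 8 libraries, *Sln*, with 6 to 40 in 4 libraries, and *Pln*, with 38 to 74. The parts of depth and of the spread between mice in the intervals were not separated. With the library total in place of TMM, the genes that varied less per muscle count numbered 20 in place of 26.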
